A study of Mus musculus with 32 samples.

Results

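The 33 genes described here encode the enzymes, regulators and transporters with which a cell makes and handles cholesterol and fatty acids. They were chosen by symbol, from the known steps of the pathway, with earlier results of these data known. Counts of them set beside the share of all genes are therefore descriptive. All 33 were among the 24421 genes of the count table. All 33 also passed the filter on low counts, which kept 14154 genes for testing. By role they are 5 regulators, 7 enzymes of the mevalonate steps, 9 enzymes of the squalene and sterol steps, 9 enzymes that make, lengthen or desaturate fatty acids, and 3 proteins of sterol transport and efflux. The 7 and 9 enzymes of the cholesterol branch are called together the 16 cholesterol synthesis enzymes.

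RNA-seq was run on 8 stem and progenitor fractions sorted from bone marrow, with 2 libraries for every combination of fraction and age, which gave 32 libraries. The mice were of strain C57BL/6. Young mice had reached 10 weeks and Aged mice 20 months. HSC, MPP1, MPP2, MPP3 and MPP4 were sorted as IL-7Rα- and Lin- cells that carried both Sca-1 and c-kit. Within this gate HSC were CD150+ and lacked CD34, CD48 and Flt3, while the MPP fractions were all CD34+. MPP1 were CD150+ CD48- Flt3-, MPP2 were CD150+ CD48+ Flt3-, MPP3 were CD150- CD48+ Flt3- and MPP4 were CD150- CD48+ Flt3+. GMP were Sca-1- c-kit+ cells with FcgR and CD34, and MEP were Sca-1- c-kit+ cells without either. CLP were IL-7Rα+ Lin- cells with low Sca-1 and low c-kit. No mouse carried an engineered allele or received a treatment according to the labels. Per the study's methods the mice were female, and the marrow of each age was combined before 2 sorts were made. Elsewhere in the study the RNA-seq samples are described as biologically independent. Which mice stood behind each duplicate was not stated, so the p-values may measure only the spread between 2 sorts, which may be technical. In bulk RNA of sorted cells, fewer cells of one type and less RNA per cell cannot be told apart.

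Cells build cholesterol from acetyl-CoA through mevalonate, isoprenoid diphosphates, squalene and lanosterol. The transcription factors encoded by Srebf1 and Srebf2 switch on these enzymes when membrane sterol falls: the Scap protein escorts them from the endoplasmic reticulum to the Golgi for cleavage, and the Insig proteins hold them back when sterol is plentiful. Insig1 is itself a target of the factors, so its mRNA is widely used as a readout of the pathway. Sterol in excess leaves the cell through the ABC transporters Abca1 and Abcg1, which are targets of the sterol-sensing LXR receptors. In blood-forming tissue, cholesterol supply and efflux are known to bear on the proliferation of stem and progenitor cells.

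Several sort antigens followed the gates at the RNA level, and some did not. Slamf1 (CD150) stood at 53.9 CPM (the usual depth-normalised read count, scaled here by TMM) in young HSC and at 0.321 in young MPP4, Flt3 at 1060 CPM in young MPP4 and at 27.9 in young HSC, Fcgr3 at 481 CPM in young GMP, and Il7r at 158 CPM in young and 195 CPM in aged CLP. Ly6a (Sca-1) was at 0.256 CPM in young MEP. By contrast, Flt3 stood at 280 CPM in young MPP3, sorted as Flt3-, and Cd34 at 204 CPM in young HSC, sorted as lacking CD34. With age 5 of the 8 sort antigens were lower in MEP (adjusted p under 0.01 in edgeR, 11.7% of all genes) and 0 higher. Il7r went from 13.4 to 0.309 CPM there. Aged CLP had 2 higher (5.71%) and 1 lower (4.73%), and Ly6a read 35.2 CPM in young and 214 CPM in aged CLP. HSC had 0 higher (3.74%) and 1 lower (1.66%), and MPP1 had 1 higher (4.71%) and 1 lower (2.09%). MPP2, MPP3 and MPP4 each had 1 higher (4.49%, 8.14% and 10.3%) and 2 lower (3.31%, 5.79% and 6.27%). GMP had 1 higher (9.93%) and 1 lower (8.97%). Kit read 1330 CPM in young and 981 CPM in aged MPP1, Cd48 94.7 and 153 CPM in MPP2, and Flt3 1060 and 732 CPM in MPP4. The libraries held 11237384 to 17723245 counts each (median 13489609.5). Duplicates of 1 group differed by more than sampling noise in every group, with a chi-square per degree of freedom of 4.59 to 19.0, so none was counted as a repeat of the other.

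Promoter sequence was at hand for 25 of the 33 genes, as RefSeq windows from 250 bases before to 50 bases after a start site (GRCm38.p6). The letters TCACNCCAC, a form of the sterol response element that the Srebf1 and Srebf2 products bind, were found on either strand in 1 of the 25 genes, Hmgcs1, and in 1.24% of all 32851 windows. The CCAAT box (CCAAT on either strand), bound by a partner of these factors, was in 20 of the 33 windows of these 25 genes and in 37.4% of all windows, and 19 of the 25 genes had one. The E-box CACGTG was in 7 of the 33 windows and in 7.15% of all windows. In the windows printed here no match overlapped another, and a match describes the letters only. The windows of 4 genes are shown, 3 of which (Cyp51, Insig1 and Idi1) differed with age in 6 or more fractions and 1 of which (Hmgcs1) holds the sterol response element. Capitals mark the matches, ATTGG being CCAAT read from the other strand.
Hmgcs1, chr13:119690101-119690400, plus strand: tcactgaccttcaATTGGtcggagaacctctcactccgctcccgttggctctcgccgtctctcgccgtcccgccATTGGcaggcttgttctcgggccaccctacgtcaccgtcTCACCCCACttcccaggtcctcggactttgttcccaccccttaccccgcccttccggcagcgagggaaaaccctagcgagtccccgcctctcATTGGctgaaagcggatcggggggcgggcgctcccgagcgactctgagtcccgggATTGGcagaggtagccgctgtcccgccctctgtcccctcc
Insig1, chr5:28071162-28071461, plus strand: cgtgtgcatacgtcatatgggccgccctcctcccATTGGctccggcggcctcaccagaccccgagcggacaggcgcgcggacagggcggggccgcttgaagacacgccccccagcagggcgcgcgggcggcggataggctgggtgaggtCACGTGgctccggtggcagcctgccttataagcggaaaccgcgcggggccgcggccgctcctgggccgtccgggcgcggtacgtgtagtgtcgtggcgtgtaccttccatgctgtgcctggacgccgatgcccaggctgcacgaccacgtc
Idi1, chr13:8885356-8885655, plus strand: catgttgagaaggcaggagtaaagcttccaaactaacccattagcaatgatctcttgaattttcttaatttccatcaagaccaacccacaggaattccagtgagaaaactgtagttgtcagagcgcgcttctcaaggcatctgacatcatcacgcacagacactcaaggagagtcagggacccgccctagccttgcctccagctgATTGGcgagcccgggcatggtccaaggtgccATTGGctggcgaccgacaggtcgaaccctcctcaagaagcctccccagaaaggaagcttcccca
Cyp51, chr5:4104648-4104947, minus strand: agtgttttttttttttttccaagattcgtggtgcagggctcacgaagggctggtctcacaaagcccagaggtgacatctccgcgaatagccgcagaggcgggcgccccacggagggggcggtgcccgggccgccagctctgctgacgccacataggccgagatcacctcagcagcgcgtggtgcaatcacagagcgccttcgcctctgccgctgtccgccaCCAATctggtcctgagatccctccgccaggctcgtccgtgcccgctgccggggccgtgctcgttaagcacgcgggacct
In Hmgcs1 the sterol response element began 137 bases before the start site, and CCAAT boxes lay both nearer and farther. Insig1 held its E-box 101 bases and its CCAAT box 216 bases before the start, Idi1 held CCAAT boxes 45 and 14 bases before it, and Cyp51 held one 29 bases before it.

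The young fractions differed widely in how much of each gene they carried. Per kilobase of transcript, the most abundant members in young HSC were Scd2, a stearoyl-CoA desaturase, at 111 ± 1.71 CPM per kb (SD, n = 2) and Srebf2 at 86.5 ± 4.83 CPM per kb, and the least abundant was the sterol reductase Tm7sf2 at 1.98 ± 0.136 CPM per kb. Fads1, a fatty acid desaturase, followed Srebf2 at 79.9 ± 4.48 CPM per kb, within the spread of the libraries. In young GMP the elongase Elovl5 led at 120 ± 11.9 CPM per kb, Acly, which makes cytosolic acetyl-CoA from citrate, stood at 102 ± 4.49 and Fdps, which makes farnesyl diphosphate, at 96.1 ± 6.10 CPM per kb, the last pair differing by less than their spread. Acly also led in young CLP, at 103 ± 3.79 CPM per kb. The heat map of young levels shows the same genes as differences within each row.

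**Figure D1:**
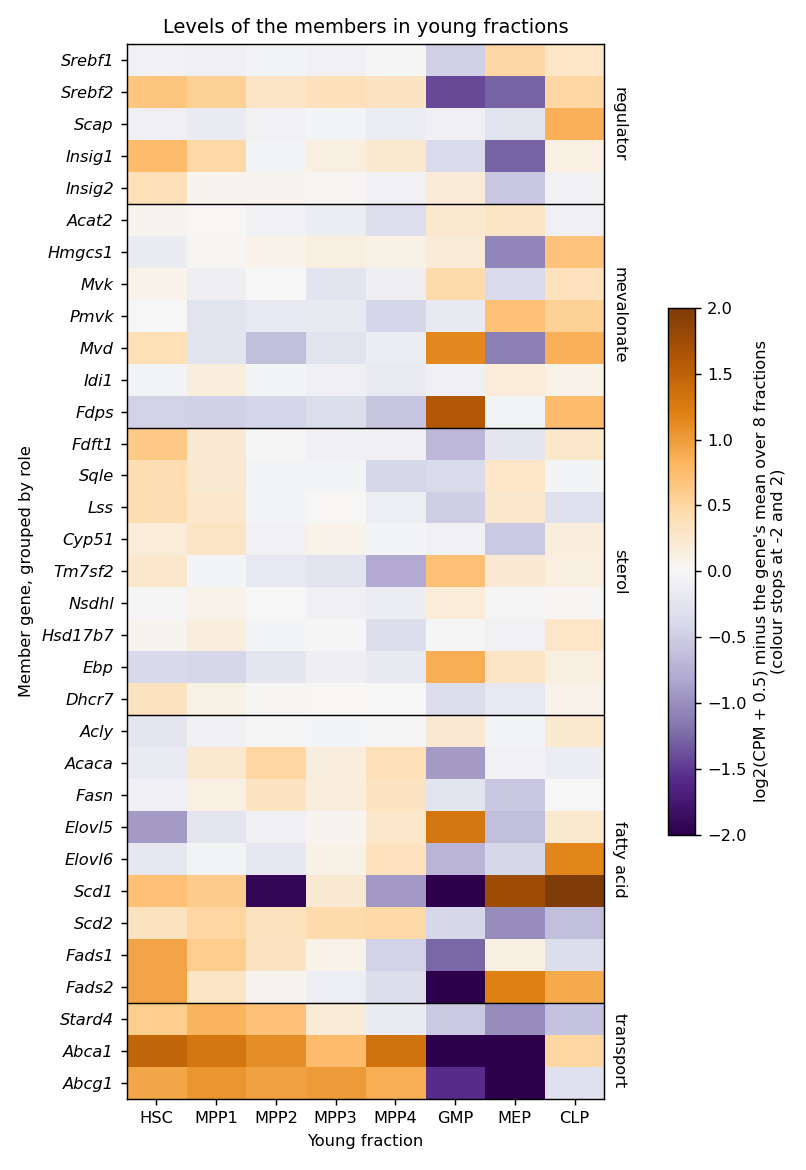
Levels of the 33 genes in the 8 young fractions, as log2(CPM + 0.5) of the mean of 2 libraries minus the gene's own mean over the fractions (colour, from -2 to 2), with fractions on the horizontal axis and genes by role on the vertical axis. Abca1, Abcg1, Scd1 and Fads2 are lowest in GMP or MEP, Mvd and Fdps are high in GMP and CLP, and Srebf2 is low in GMP and MEP.

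Fold differences between young fractions were tested by edgeR's quasi-likelihood test with Benjamini-Hochberg adjustment over all genes tested, as were all tests here, and called at an adjusted p under 0.01. Against young HSC, the mean of young MPP1 to MPP4 was higher for 2 members and lower for 10, where 18.9% and 19.2% of all genes tested were called in those directions. Fads2, the desaturase that begins the synthesis of highly unsaturated fatty acids, was 119 and 121 CPM in young HSC and 47.2 to 76.8 CPM in the young MPP libraries, and fell by 0.98 on the log2 scale (SE 0.07, adjusted p = 5.49e-11). Fads1 (log2 fold change -0.82), the next desaturase of that path, and Mvd (-0.75), which makes isopentenyl diphosphate, were lower in MPP1 to MPP4 as well, and Elovl5 was higher (0.93, SE 0.07). Without Young HSC replicate 2, 6 of the 10 lower calls were made.

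Young GMP carried 8 members at a higher and 16 at a lower level than young MPP3, with 28.0% of all genes higher and 30.0% lower. All 3 transport genes were lower. Abcg1 was 98.3 and 104 CPM in MPP3 and 18.1 and 15.0 CPM in GMP (log2 fold change -2.61, SE 0.09, adjusted p = 1.04e-15). Abca1 was 28.6 and 24.6 CPM in MPP3 and rested on 0 and 7 counts in GMP, where its fitted log2 fold change of -6.71 moved to -11.52 without Young GMP replicate 2. Scd1, a desaturase close in sequence to Scd2, likewise rested on 0 and 6 counts in GMP, and its fitted log2 fold change of -5.16 moved to -9.75 without the same library. Fads2 stood at 7.05 and 7.88 CPM in GMP against 60.5 and 53.8 CPM in MPP3 (log2 fold change -2.93, SE 0.11). Of the cholesterol synthesis enzymes, 6 were higher and 3 lower in GMP. Gene-wise offsets that correct each library for GC content and transcript length (GC and length offsets) changed the split to 10 higher and 8 lower members, and turned the sign for Srebf1 (-0.40 to 0.11) and for Fasn (-0.43 to 0.75).

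Young MEP carried 8 members higher and 12 lower than young MPP2, against 27.3% and 36.7% of all genes. The transport genes were lower again, Abcg1 with 96.1 and 98.7 CPM in MPP2 and 5.76 and 6.17 CPM in MEP (log2 fold change -4.03, SE 0.11, adjusted p = 4.16e-18), Abca1 with a log2 fold change of -3.24 (SE 0.39) and the sterol carrier Stard4 with -1.72 (SE 0.20). Scd1 went the other way, from 1.56 and 1.20 CPM in MPP2 to 22.2 and 24.3 CPM in MEP (log2 fold change 4.07, SE 0.71). With the GC and length offsets 15 members were higher and 8 lower, and the signs of Fasn (-0.89 to 0.49) and Fads1 (-0.19 to 0.21) turned.

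Young CLP carried 12 members higher and 2 lower than young MPP4, against 21.3% and 20.5% of all genes. Fdps was 58.4 and 67.0 CPM in MPP4 and 154 and 162 CPM in CLP (log2 fold change 1.34, SE 0.09, adjusted p = 6.66e-11), and Fads2 rose from 50.9 and 47.2 to 119 and 113 CPM (1.24, SE 0.09). Scd1 was 55.5 and 49.6 CPM in CLP, and 0.371 and 6.09 CPM in the MPP4 duplicates, which differed widely. Its fitted log2 fold change of 4.08 moved to 7.07 without Young MPP4 replicate 2. Abcg1 was lower in CLP (-1.17, SE 0.09). The mevalonate enzymes accounted for 5 of the 12 higher calls.

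With age, the called cholesterol synthesis enzymes were lower in HSC (9 of 16) and in MPP1 to MPP4 (4 to 9 of 16) and higher in CLP (11 of 16). In aged HSC 12 members were called lower than in young HSC, where 1.66% of all genes tested were called lower, and 0 were called higher, where 3.74% were. They were the brake Insig1, the mevalonate enzymes Acat2, Hmgcs1, Mvd, Idi1 and Fdps, the sterol enzymes Sqle, Cyp51, Hsd17b7 and Dhcr7, and Acly and Scd2 of the fatty acid branch. Over the 33 the median log2 fold change was -0.32, against 0.02 over all genes tested, and that of the 16 cholesterol synthesis enzymes was -0.67, with 15 of the 16 estimates below 0. The count of 0 higher calls went with 2 members higher at an unadjusted p under 0.05 in edgeR, and DESeq2 called 1 member higher. With only the 4 HSC libraries in the fit, where far fewer genes of any kind were called (0.357% lower), 2 of the 12 were called lower and the adjusted p of the 12 reached up to 0.145. Of the 12 calls 8 were made without any one library, and Acat2, Hmgcs1, Hsd17b7 and Acly lost theirs in at least 1 such fit.

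In the 4 MPP fractions most calls were again lower, and of the 16 cholesterol synthesis enzymes 9, 8, 5 and 4 were called lower in MPP1 to MPP4 and 0 higher. From MPP1 to MPP4 in turn, 12, 11, 8 and 6 members were called lower, where 2.09%, 3.31%, 5.79% and 6.27% of all genes tested were called lower. Those called higher numbered 0, 1, 0 and 3, where 4.71%, 4.49%, 8.14% and 10.3% were. At an unadjusted p under 0.05, 4 members were higher in MPP1 and 4 in MPP3, and DESeq2 called 1 and 0 higher there. MPP1 lower calls were Srebf2, Insig1, Hmgcs1, Mvd, Idi1, Fdps, Fdft1, Sqle, Lss, Cyp51, Hsd17b7 and Scd2. In MPP2 they were Srebf2, Insig1, Idi1, Fdps, Fdft1, Sqle, Cyp51, Tm7sf2, Hsd17b7, Dhcr7 and Scd2, with the efflux transporter Abcg1 higher. MPP3 had Srebf2, Insig1, Mvd, Fdps, Fdft1, Sqle, Cyp51 and Scd2, and MPP4 had Srebf2, Insig1, Mvd, Idi1, Sqle and Cyp51, with Scap, Fads1 and Fads2 higher. The 16 cholesterol synthesis enzymes had median log2 fold changes of -0.59, -0.55, -0.50 and -0.29 in MPP1 to MPP4.

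Leaving out 1 library thinned these counts, to 6 or 7, 5 to 7, 5, and 1 to 4 in MPP1 to MPP4 in turn, whichever library was left out. Insig1 was called in all these fits of MPP1 to MPP4, Sqle and Scd2 in all those of MPP1 to MPP3, and Srebf2 in the same 3 fractions. MPP4 was left with 1 lower member, Insig1, without Aged MPP4 replicate 2.

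Other lists moved with age in these fractions. From HSC through MPP4, 3.74%, 4.71%, 4.49%, 8.14% and 10.3% of all genes tested were called higher. The shares called lower were 1.66%, 2.09%, 3.31%, 5.79% and 6.27%. Of 13 proliferation genes, 6 were higher in aged HSC and 12, 6, 12 and 11 in aged MPP1 to MPP4, and the summed level of the list was 1760 CPM in both young and 2120 to 2190 CPM in both aged HSC libraries, 3920 to 5980 CPM in the young and 5700 to 7270 CPM in the aged MPP libraries. Of 12 macrophage genes, 3 were lower in aged HSC and 4, 6, 9 and 9 in MPP1 to MPP4, with summed levels of 90.7 to 266 CPM in young and 26.0 to 81.0 CPM in aged MPP. Of 11 granulocyte genes 7 were higher in aged HSC (278 and 304 CPM summed in young, 652 and 845 in aged). The other 4 had estimates below 0 there, Elane going from 17.2 to 7.45 CPM and Mpo from 61.7 to 47.3. Prtn3 alone went from 146 to 385 CPM. Of the 11, 1 was higher in aged MPP1 and 2 in aged MPP4, and 6 and 7 were lower in aged MPP2 and MPP3. Of 9 erythroid genes 5 were lower in aged MPP2 (946 and 989 CPM summed in young, 230 and 216 in aged) and 5 in aged MPP3 (1120 and 1090 against 232 and 211 CPM). Of 10 B lineage genes 1 was lower in aged MPP2 and 3 in aged MPP3 (51.4 and 51.1 against 43.1 and 43.4 CPM), with Pax5 at 0 in every HSC and MPP library. None of the genes of the other 4 lists was at 0 in both duplicates, except Mmp8 in young MPP4. The part of these lists in the members' results was not tested.

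In CLP the direction was the opposite. Aged CLP had 14 members higher, against 5.71% of all genes tested, and 1 lower, Scd1, against 4.73%. The 14 were Insig1, the mevalonate enzymes Hmgcs1, Mvd, Idi1 and Fdps, the sterol enzymes Fdft1, Sqle, Lss, Cyp51, Tm7sf2, Nsdhl and Dhcr7, and the desaturases Scd2 and Fads2. All 16 cholesterol synthesis enzymes had an estimate above 0 and 11 were called, with a median log2 fold change of 0.59 (all genes 0.00). The spread between the aged CLP libraries was wide: replicate 1 was above replicate 2 for each of the 14. Without Aged CLP replicate 1 the higher calls fell to 6 (Insig1, Hmgcs1, Fdps, Sqle, Dhcr7 and Scd2). With only the 4 CLP libraries in the fit, in which 0.324% of all genes were called higher, 0 of the 14 were called, 21 members were higher at an unadjusted p under 0.05, and the 15 calls kept their direction with adjusted p of 0.0142 to 0.0957. DESeq2 on all 32 libraries called 12 of the cholesterol synthesis enzymes higher.

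Aged and young CLP also differed in markers of other cells. Of all genes tested, 4.73% were called lower in aged CLP. All 11 granulocyte genes were lower in aged CLP (2040 and 2110 CPM summed in young, 379 and 387 in aged), as were 11 of 12 macrophage genes (255 and 281 against 9.42 and 7.36 CPM, with Fcna, Mertk and Cd5l at 0 in both aged libraries), 8 of 10 B lineage genes (3330 and 3380 against 1820 and 1750 CPM) and 9 of 13 proliferation genes (7190 and 7240 against 5160 and 6120 CPM). Erythroid genes summed to 1380 and 1420 CPM in young CLP and to 524 CPM in Aged CLP replicate 1 and 78.5 CPM in replicate 2. Their part in the members' results was not tested.

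GMP and MEP lay between. In aged GMP 4 members were higher (Srebf1, Srebf2, Scd2 and Fads2; 9.93% of all genes) and 2 were lower (Idi1 and Cyp51; 8.97%), shares close to the background. The 4 higher calls did not outlast the GC and length offsets, with which 0 members were higher (2 at an unadjusted p under 0.05) and 4 lower. Without Young GMP replicate 1, and likewise without Aged GMP replicate 1, only Srebf2 was called higher. In aged MEP 8 members were higher (Srebf1, Mvd, Fdps, Dhcr7, Scd2, Fads1, Fads2 and Stard4; 9.08% of all genes) and 2 lower (Elovl5 and Abcg1; 11.7%). None of the 8 was called in every fit that left out 1 library, and 2 were called without Aged MEP replicate 2. The GC and length offsets left 4 higher and 1 lower. With only the 4 MEP libraries in the fit, 0 members were called, with 10 higher and 4 lower at an unadjusted p under 0.05.

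B lineage genes stood at 248 and 241 CPM summed in young MEP and at 2.44 and 3.18 CPM in aged MEP, where Cd79a, Ms4a1, Igll1, Ebf1 and Pax5 were at 0 in both libraries and 8 of the 10 were called lower. Of all genes tested, 11.7% were called lower and 9.08% higher in MEP, and 8.97% lower and 9.93% higher in GMP. Macrophage genes were lower for 6 of 12 in MEP (223 and 234 against 187 and 183 CPM) and for 7 of 12 in GMP (236 and 248 against 155 and 190 CPM). Slc40a1 made up most of the MEP sums, at 213 CPM in young and 183 in aged cells, and Vcam1 stood at 109 and 104 CPM in GMP. Both libraries were at 0 for 7 of the 12 in aged MEP, against 2 in young MEP. In aged GMP 6 were at 0, against 0 in young GMP. Erythroid genes summed to 848 and 776 CPM in young and 84.4 and 31.4 CPM in aged GMP, with 4 of 9 called lower. Of 13 proliferation genes 4 were higher and 5 lower in aged GMP (7210 and 7510 against 6680 and 6680 CPM summed). In aged MEP 1 was higher and 4 lower (9820 and 9650 against 8700 and 8700 CPM). Of 11 granulocyte genes 0 were higher and 4 lower in aged GMP. In aged MEP 1 was higher and 4 lower (290 and 261 against 125 and 28.5 CPM, the aged duplicates lying far apart). Their part in the members' results was not tested.

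**Figure D2:**
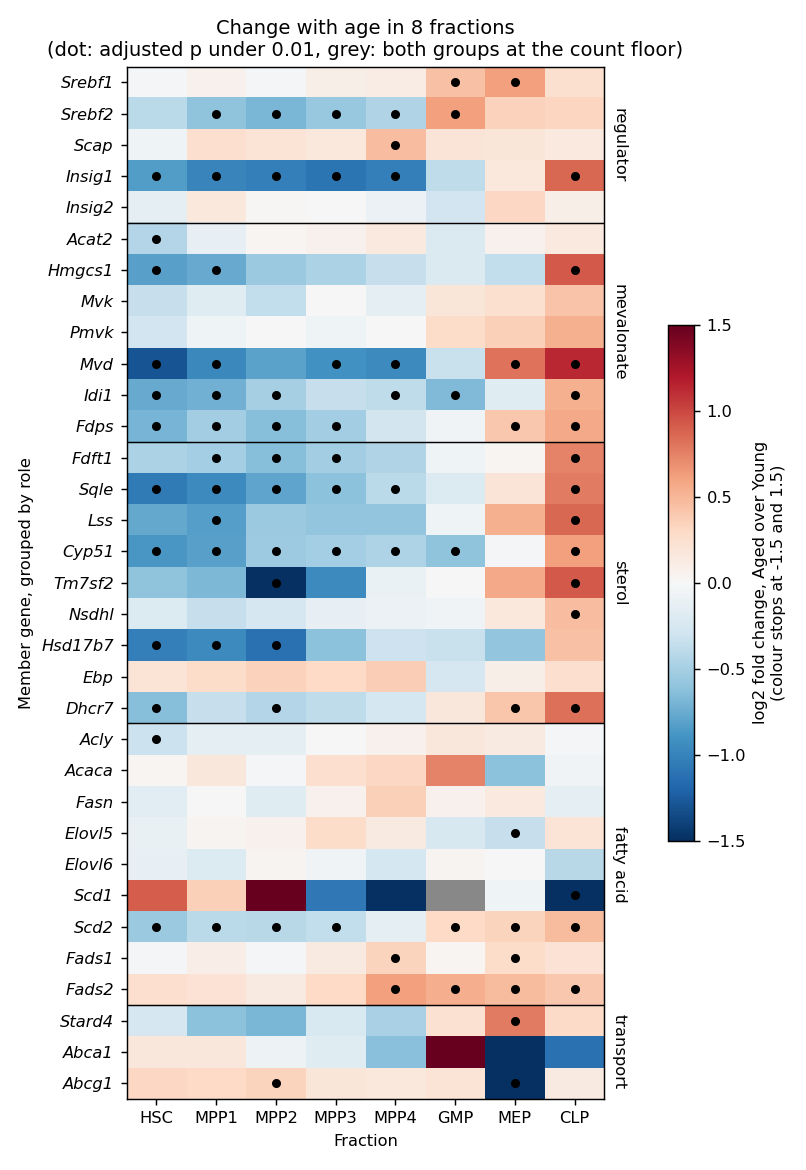
log2 fold change of Aged over Young for the 33 genes (rows, grouped by role) in the 8 fractions (columns), with dots where the adjusted p was under 0.01 in edgeR and grey where both means were at or under the floor of 3 counts. HSC and MPP1 to MPP4 hold 12, 12, 11, 8 and 6 dots on blue (lower), while CLP holds 14 on red (higher) and 1 on blue.

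Among the regulators, Insig1 changed most. It read 120 and 122 CPM in young against 66.1 and 68.9 CPM in aged HSC, 96.0 and 100 against 50.3 and 48.5 in MPP1, 68.9 and 68.9 against 33.1 and 34.4 in MPP2, 81.2 and 76.2 against 38.0 and 35.8 in MPP3, and 86.8 and 82.5 against 41.6 and 41.4 in MPP4. Young and aged libraries did not overlap in any of the 5. The log2 fold changes were -0.84, -0.99, -1.03, -1.09 and -1.03 (SE 0.13 each), with adjusted p from 5.39e-06 (MPP3) to 0.000138 (HSC). In CLP Insig1 was 79.9 and 75.4 CPM in young and 166 and 116 CPM in aged libraries (log2 fold change 0.86, SE 0.13, adjusted p = 6.12e-05). GMP (53.4 and 55.6 against 45.9 and 37.8 CPM) and MEP (33.8 and 25.1 against 35.0 and 31 CPM) were not called.

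Srebf2, the factor most tied to cholesterol synthesis, was lower in MPP1 to MPP4 and higher in GMP. In MPP2 it read 343 and 340 CPM in young and 211 and 212 CPM in aged libraries (log2 fold change -0.69, SE 0.10, adjusted p = 0.000122), and the values of MPP1, MPP3 and MPP4 were -0.60, -0.57 and -0.45. HSC read 456 and 422 against 297 and 363 CPM and was not called. GMP read 99.5 and 106 against 162 and 153 CPM (0.61, SE 0.10, adjusted p = 0.000156), which the GC and length offsets reduced to 0.23 (adjusted p = 0.0520).

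Srebf1, tied more to fatty acid synthesis, was called in MEP (191 and 242 against 314 and 344 CPM, a log2 fold change of 0.61, SE 0.11, adjusted p = 0.000293) and in GMP (96.2 and 126 against 159 and 143 CPM, 0.44, SE 0.11). The MEP call was lost with the GC and length offsets (0.36, adjusted p = 0.0106), without Young MEP replicate 1 (0.44) and without Aged MEP replicate 2 (0.45). The GMP value fell to 0.26 without Young GMP replicate 1 and to 0.12 with the offsets. Scap was called in MPP4, at 150 and 138 CPM in young and 201 and 198 CPM in aged libraries (0.46, SE 0.10, adjusted p = 0.00217), a call lost in 3 of 4 fits that left out 1 library. Insig2, the second brake, was called in no fraction and lay between 13.3 and 29.9 CPM in all 32 libraries.

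**Figure D3:**
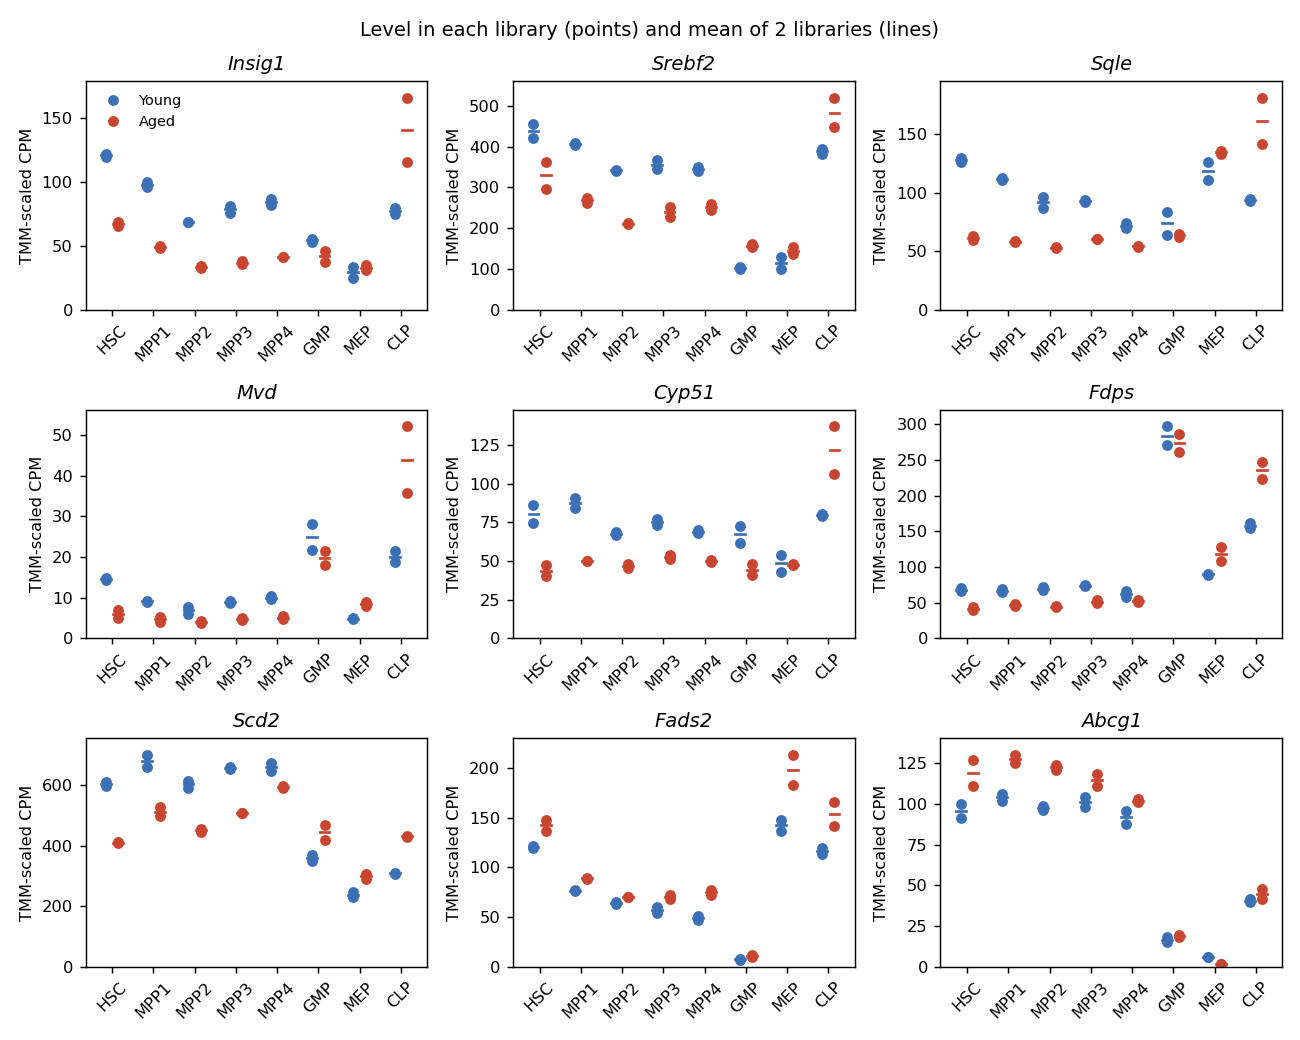
TMM-scaled CPM of 9 members in each library (points, 2 per group) with the mean (line), for Young (blue) and Aged (red) cells of the 8 fractions on the horizontal axis. For Insig1, Sqle and Cyp51 the aged points lie below the young points in HSC and MPP1 to MPP4 and above them in CLP.

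The mevalonate steps were led by Mvd. It was 14.8 and 14.4 CPM in young and 5.0 and 6.90 CPM in aged HSC, a log2 fold change of -1.29 (SE 0.20, adjusted p = 0.000191) that was the largest drop of any member there. In CLP it went from 18.7 and 21.5 to 52.1 and 35.7 CPM (1.13, SE 0.19, adjusted p = 0.000190), and in MEP from 4.99 and 4.67 to 7.96 and 8.95 CPM (0.81, SE 0.21, adjusted p = 0.00607). The estimates in MPP1, MPP3 and MPP4 were -0.97, -0.91 and -0.96. At these low counts the calls in MEP, MPP1 and MPP3 were each lost whichever of the 4 libraries was left out, and the MPP4 call in 2 of 4 such fits. The CLP call was lost without Aged CLP replicate 1.

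Idi1, which isomerises isopentenyl diphosphate, was called in HSC (83.9 and 86.8 against 55.8 and 44.9 CPM, log2 fold change -0.76, SE 0.10, adjusted p = 3.34e-05), MPP1 (-0.72), MPP2 (-0.50), MPP4 (-0.38), GMP (83.1 and 85.0 against 55.7 and 50.4 CPM, -0.66, SE 0.10, adjusted p = 5.61e-05) and CLP (0.53). Idi1 was thus lower in aged GMP too. Its MPP2 call was lost whichever library was left out and its MPP4 call in 3 of 4 such fits. Fdps was lower in HSC (65.9 and 69.9 against 39.3 and 44.0 CPM, -0.70, SE 0.09, adjusted p = 2.65e-05), MPP1 (-0.52), MPP2 (-0.64) and MPP3 (-0.52), and higher in MEP (89.0 and 90.4 against 128 and 108 CPM, 0.40, SE 0.09, adjusted p = 0.00170) and CLP (154 and 162 against 247 and 224 CPM, 0.57, SE 0.09, adjusted p = 9.27e-05). Its highest level of all, 261 to 297 CPM in GMP, did not pass the test with age.

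Hmgcs1, which makes HMG-CoA and carries the sterol response element shown above, was lower in HSC (47.8 and 47.0 against 32 and 21.9 CPM, log2 fold change -0.82, SE 0.15) and MPP1 (-0.76) and higher in CLP (88.9 and 80.5 against 185 and 136 CPM, 0.92, SE 0.14, adjusted p = 7.20e-05). The HSC call was lost without Aged HSC replicate 2 (-0.57, adjusted p = 0.0218), and the MPP1 call whichever library was left out. Acat2, which joins acetyl-CoA units, was called in HSC alone, at 65.2 and 74.8 CPM in young and 49.6 and 53.7 CPM in aged libraries (-0.44, SE 0.07, adjusted p = 0.000305). The kinases Mvk and Pmvk passed in no fraction, and read 9.30 to 24.3 and 12.4 to 45.3 CPM over all libraries.

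Of the sterol steps, Sqle, the oxygenase that turns squalene into its epoxide and a slow step of the path, read 130 and 126 CPM in young and 60.0 and 62.8 CPM in aged HSC (log2 fold change -1.06, SE 0.10, adjusted p = 5.28e-07). It was lower in MPP1 (111 and 113 against 57.7 and 58.6 CPM, -0.95), MPP2 (-0.79), MPP3 (-0.62) and MPP4 (-0.40), so that aged libraries of these 5 fractions lay between 52.7 and 62.8 CPM while the young ones spread from 69.6 to 130. The MPP4 call was lost whichever library was left out. In CLP it rose from 94.4 and 93.3 to 181 and 142 CPM (0.78, SE 0.10, adjusted p = 1.56e-05).

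Cyp51, the lanosterol demethylase, was lower in 6 fractions and higher in CLP. HSC read 86.0 and 74.4 against 47.3 and 40.3 CPM (estimated log2 fold change -0.87, SE 0.12, adjusted p = 4.39e-05), and the estimates were -0.81, -0.54, -0.51 and -0.46 in MPP1 to MPP4. The MPP2, MPP3 and MPP4 calls were each lost whichever library was left out. GMP read 72.8 and 61.5 against 47.8 and 41.0 CPM (-0.60, SE 0.12, adjusted p = 0.000797), a call lost without Young GMP replicate 1 and without Aged GMP replicate 2. CLP read 80.2 and 78.8 against 137 and 106 CPM (0.61, SE 0.12, adjusted p = 0.000751), which fell to 0.42 (adjusted p = 0.0432) without Aged CLP replicate 1.

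Fdft1, the squalene synthase, was lower in MPP1 (-0.51), MPP2 (42.5 and 41.5 against 27.3 and 26.5 CPM, -0.64, SE 0.13, adjusted p = 0.00169) and MPP3 (-0.52) on the log2 scale and higher in CLP (51.9 and 52.1 against 100 and 73.0 CPM, 0.74, SE 0.12, adjusted p = 0.000219). Each of its MPP calls was lost whichever library was left out, those in MPP1 and MPP3 also with the GC and length offsets, and without Aged CLP replicate 1 its CLP value was 0.49 and not called. Dhcr7, a reductase of the last steps, was lower in HSC (80.8 and 75.4 against 49.1 and 51.1 CPM, -0.64, SE 0.11, adjusted p = 0.000494) and MPP2 (-0.44) and higher in CLP (65.7 and 64.3 against 130 and 102 CPM, 0.83, SE 0.11, adjusted p = 1.57e-05) and MEP (47.7 and 60.3 against 74.7 and 69.7 CPM, 0.42, SE 0.11). The MEP value fell to 0.26 without Young MEP replicate 1, and the MPP2 call was lost whichever library was left out.

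Tm7sf2 and Hsd17b7 were scarce but moved far. Tm7sf2 was 4.16 and 4.51 CPM in young and 1.29 and 1.76 CPM in aged MPP2 (log2 fold change -1.5, SE 0.27, adjusted p = 0.000665), and 5.01 and 6.00 against 12.1 and 8.77 CPM in CLP (0.92, SE 0.23, adjusted p = 0.00782). Hsd17b7, a ketone reductase of the path, was 13.2 and 15.1 against 6.65 and 7.30 CPM in HSC (-1.02, SE 0.23, adjusted p = 0.00526), -0.95 in MPP1 and 14.2 and 12.5 against 6.04 and 6.25 CPM in MPP2 (-1.12, SE 0.23). Lss, the cyclase that makes lanosterol, was called in MPP1 (35.4 and 31.5 against 17.4 and 20.2 CPM, -0.83) and CLP (22.1 and 23.2 against 42.3 and 40.0 CPM, 0.86), and Nsdhl, a demethylation enzyme, in CLP (0.46). The Hsd17b7 calls in HSC and MPP1 and the Lss call in MPP1 were lost whichever library was left out. Those of Hsd17b7 in MPP2 and of Lss and Tm7sf2 in CLP were lost in 3 of 4 such fits, and that of Tm7sf2 in MPP2 without Aged MPP2 replicate 1. Ebp, the sterol isomerase, was called in no fraction. Its estimates were above 0 in HSC and MPP1 to MPP4, where most of the other cholesterol synthesis enzymes were below, for example 46.7 and 53.0 CPM in young and 63.6 and 64.6 CPM in aged MPP4.

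In the fatty acid branch only Scd2 followed the cholesterol enzymes. Scd2 read 611 and 598 CPM in young and 412 and 410 CPM in aged HSC (log2 fold change -0.56, SE 0.06, adjusted p = 9.77e-07) and was lower in MPP1 (-0.41), MPP2 (-0.42) and MPP3 (-0.37). It was higher in CLP (311 and 307 against 434 and 429 CPM, 0.48, SE 0.06, adjusted p = 4.84e-06), MEP (246 and 231 against 291 and 308 CPM, 0.33, SE 0.06) and GMP (351 and 369 against 469 and 420 CPM, 0.30, SE 0.06). The GMP value fell to 0.09 with the GC and length offsets and the MEP value to 0.20 without Aged MEP replicate 2. Scd2 (chromosome 19, 44293674 to 44306864, GENCODE M21, GRCm38) has Scd1 as a near neighbour and paralog (44394455 to 44407879), so reads of the pair may have been divided between them in a way the counts do not show.

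Scd1 was called in CLP, at 55.5 and 49.6 CPM in young and 12.4 and 6.32 CPM in aged libraries (log2 fold change -2.49, SE 0.58, adjusted p = 0.00457), and this call was lost whichever of the 4 libraries was left out. Its duplicates were far apart elsewhere, with 18 and 87 counts in aged MPP3 and 6 and 80 counts in young MPP4. In HSC it read 11.3 and 10.9 CPM in young and 20.2 and 21.6 CPM in aged libraries, and in MPP2 1.56 and 1.20 against 6.38 and 7.42 CPM, neither of which passed the test. In GMP both ages were at or near 0 (0 and 6 counts in young, 0 and 0 in aged), and no fold is given.

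Fads2 was higher in 4 fractions and called lower in none. MPP4 read 50.9 and 47.2 CPM in young and 72.5 and 77.1 CPM in aged libraries (log2 fold change 0.61, SE 0.09, adjusted p = 3.44e-05), GMP 7.05 and 7.88 against 11.7 and 10.2 CPM (0.55, SE 0.12), MEP 137 and 148 against 183 and 213 CPM (0.47, SE 0.09) and CLP 119 and 113 against 166 and 142 CPM (0.41, SE 0.09). The GMP, MEP and CLP calls were each lost in at least 1 fit without a library, and the MPP4 call was made in all 4. Fads1, which lies beside Fads2 on chromosome 19 (10182888 to 10196877, against 10062765 to 10101746), was higher in MPP4 (105 and 103 against 129 and 132 CPM, 0.33) and MEP (0.27, or 0.15 without Aged MEP replicate 2).

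Acly was lower in HSC (330 and 319 against 276 and 245 CPM, log2 fold change -0.32, SE 0.07), a call lost without 3 of the 4 libraries in turn, and Elovl5 was lower in MEP (94.8 and 78.7 against 66.9 and 70.1 CPM, -0.34, or -0.20 without Young MEP replicate 1). The central enzymes Acaca (acetyl-CoA carboxylase) and Fasn (fatty acid synthase) and the elongase Elovl6 were called in no fraction. Fasn read 261 and 253 CPM in young against 227 and 231 CPM in aged HSC and 374 and 311 against 466 and 410 CPM in MPP4.

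Of the transport genes, Abcg1 in MEP gave the largest drop among the called values outside CLP. It read 5.76 and 6.17 CPM in young and 1.59 and 1.64 CPM in aged MEP (log2 fold change -1.88, SE 0.17, adjusted p = 2.80e-08), a call made without any one library. In MPP2 it was 96.1 and 98.7 against 121 and 124 CPM (0.33, SE 0.08, adjusted p = 0.00877), a call lost whichever library was left out. Stard4 was 16.2 and 13 CPM in young and 29.8 and 20.6 CPM in aged MEP (0.78, SE 0.20, adjusted p = 0.00526), and 0.49 without Aged MEP replicate 1. Abca1 was called in no fraction, and in CLP it read 23.0 and 21.5 against 6.10 and 14.3 CPM.

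Summed per kilobase, the 16 cholesterol synthesis enzymes gave 263 and 274 CPM per kb in young and 177 and 190 in aged HSC. The aged sums were below the young ones in each of MPP1 (257 and 257 against 190 and 193), MPP2 (237 and 243 against 191 and 196), MPP3 (243 and 245 against 205 and 207), MPP4 (216 and 232 against 201 and 200) and GMP (357 and 349 against 317 and 315). In MEP (269 and 273 against 310 and 295) and CLP (314 and 316 against 526 and 427) they were above. The 9 fatty acid genes gave 370 and 358 CPM per kb in young and 318 and 317 in aged HSC, 365 and 352 against 384 and 378 in MPP4, 284 and 280 against 312 and 331 in MEP, and 345 and 339 against 384 and 363 in CLP. All 9 gave 383 and 368 against 339 and 355 in MPP1 and 365 and 354 against 328 and 322 in MPP2. They gave 357 and 364 against 348 and 357 in MPP3 and 328 and 345 against 360 and 340 in GMP. Without Scd2 the other 8 gave 258 and 249 against 242 and 242 in HSC and 288 and 283 against 304 and 284 in CLP. In MPP1 to MPP4 they gave 254 and 248 against 248 and 258, 252 and 245 against 244 and 240, 237 and 243 against 254 and 263, and 241 and 233 against 274 and 269. In GMP they gave 263 and 277 against 274 and 263, and in MEP 239 and 237 against 259 and 275.

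**Figure D4:**
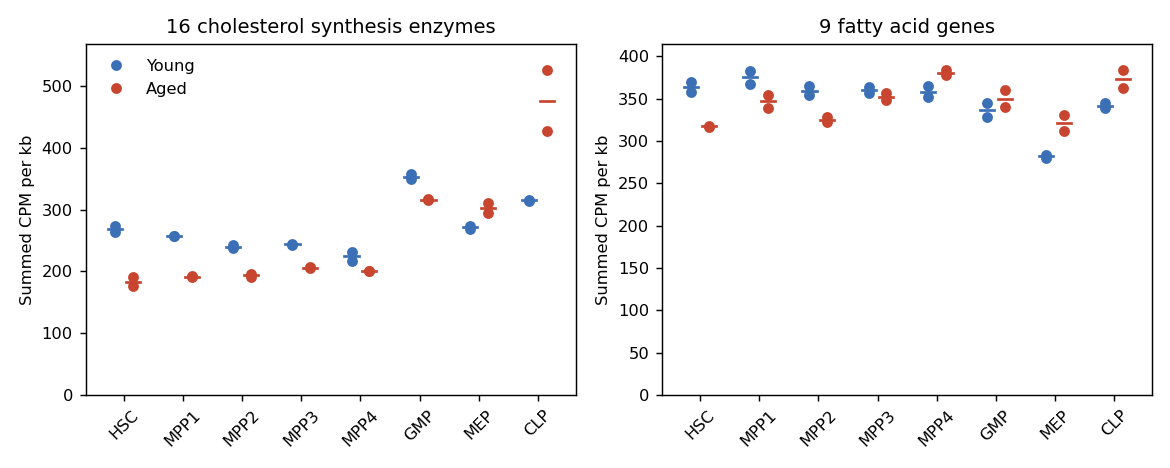
Summed level, in CPM per kb of transcript, of the 16 cholesterol synthesis enzymes (left) and the 9 fatty acid genes (right) in each library (points, 2 per group) with the mean (line), for Young (blue) and Aged (red) cells. On the left the aged points lie below the young ones from HSC to GMP and above them in MEP and CLP, where the aged pair is at 526 and 427.

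Whether the age difference itself varied among fractions was tested directly. In an F-test over the 8 fractions 21 of the 33 members were called, against 34.9% of all genes tested, and 13 of these were cholesterol synthesis enzymes. Those not called were Srebf1, Scap, Insig2, Mvk, Pmvk, Ebp, Acaca, Fasn, Elovl6, Fads1, Fads2 and Abca1. Each of HSC, GMP, MEP and CLP was then set against the mean age difference of MPP1 to MPP4, whose libraries the 4 comparisons share. HSC differed in 1 member, Acat2 (-0.47, SE 0.08, adjusted p = 0.000956), which was lower, where 1.10% of all genes were, and in 0 higher, where 1.91% were (1 at an unadjusted p under 0.05, 0 by DESeq2). At an unadjusted p under 0.05, 10 members were lower in edgeR and 7 in DESeq2. Of the 16 cholesterol synthesis enzymes 13 had estimates below 0, with a median difference of -0.26 (all genes 0.05). The Acat2 call was lost without Young HSC replicate 2.

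In CLP the age difference was higher than in MPP1 to MPP4 for 17 members, against 10.3% of all genes, and lower for 0, against 12.3% (2 at an unadjusted p under 0.05, 0 by DESeq2). The largest differences of log2 fold changes were Mvd 2.04 (SE 0.21, adjusted p = 3.23e-07), Insig1 1.90 (SE 0.14, adjusted p = 7.02e-09), Tm7sf2 1.73 (SE 0.27) and Lss 1.5 (SE 0.22). Of the cholesterol synthesis enzymes 13 of 16 were called, with a median difference of 1.19. Of the 17 calls, 13 were made in every fit that left out 1 library, and a fit restricted to the CLP and MPP libraries called 14 of the 16 enzymes higher.

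In MEP 13 members were higher relative to MPP1 to MPP4 (10.2% of all genes) and 2 lower (14.7%). Abcg1 was lower by the most (-2.12, SE 0.17, adjusted p = 7.82e-09), and Mvd (1.72, SE 0.24), Tm7sf2 (1.37, SE 0.27) and Stard4 (1.29, SE 0.22) were higher. Of the cholesterol synthesis enzymes 8 were among the higher calls, 1 fewer than the 9 called with the GC and length offsets. In GMP 6 members were higher (12.7% of all genes) and 2 lower (13.8%). Srebf2 stood out there (1.19, SE 0.12, adjusted p = 1.13e-07), beside Insig1 (0.66, SE 0.15), Scd2 (0.64, SE 0.06) and, lower, Ebp (-0.57, SE 0.12). The offsets changed the GMP split to 4 higher and 5 lower.

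Counted over all fractions, 25 of the 33 members were called with age in at least 1, as were 6542 of all genes tested (46.2%). Of these members, 16 were lower in at least 1 of HSC and MPP1 to MPP4, where 1404 of all genes (9.92%) were, and 12 of the 16 were also higher in CLP. Of all genes tested 200 (1.41%) showed that pair of calls. Insig1, Sqle and Cyp51 were called lower in all 5 of those fractions and higher in CLP, and 13 genes of all tested (0.0918%) were. The 8 members called in no fraction were Insig2, Mvk, Pmvk, Ebp, Acaca, Fasn, Elovl6 and Abca1.

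Another 34 genes of the pathway, not members, were counted beside them. From HSC through MPP4, 3.74%, 4.71%, 4.49%, 8.14% and 10.3% of all genes tested were called higher with age. The shares called lower were 1.66%, 2.09%, 3.31%, 5.79% and 6.27%. In GMP, MEP and CLP, 9.93%, 9.08% and 5.71% of all genes were called higher and 8.97%, 11.7% and 4.73% lower. In aged HSC 0 of the 34 were higher and 2 lower, among them Msmo1, a sterol demethylation enzyme (89.4 and 90.7 against 40.7 and 37.5 CPM, log2 fold change -1.20). Lower calls numbered 3 in MPP1 (among them Msmo1 -1.11), 5 in MPP2 (among them Lpin1), 4 in MPP3 (among them Lpin1 -1.10) and 4 in MPP4 (among them Apoe -1.63). Higher calls numbered 0, 0, 1 (Soat1 0.36) and 2 (Fads3 0.70 and Elovl1 0.48). Aged CLP had 7 higher, led by Msmo1 (49.5 and 55.9 against 151 and 103 CPM, 1.27) and the desaturase Fads3 (0.71), and 4 lower, among them Nr1h3, which encodes an LXR receptor (-2.61, from 0.149 to 2.35 CPM in all 4 libraries), and the apolipoprotein Apoe (-1.04). GMP had 2 higher (among them Slc25a1 0.39) and 6 lower (Apoe -0.90 and Lbr -0.68), and MEP had 4 higher (among them Mid1ip1 0.46) and 4 lower (Elovl7 -2.54 and Apoe -1.63). Relative to MPP1 to MPP4, 8 of the 34 were higher in CLP (among them Msmo1 2.06), against 10.3% of all genes, and 2 lower, against 12.3%. Over the 8 fractions the age difference varied for 16 of the 34, against 34.9% of all genes tested.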

How the data were processed

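The deposited table held raw counts per gene for the 32 libraries. To make these counts, the authors amplified RNA of sorted cells (SMARTer Ultra Low Input), fragmented it by sonication and aligned reads to mm10. The submitters' processing notes name TopHat2 2.0.13, Bowtie2 2.1.0, StringTie and DESeq2, and the strand used in counting is not given in the sources used here. A table of DESeq2-normalized counts and 8 tables of the authors' Aged against Young comparisons (fold changes and p-values) were not used. All value columns matched a sample, with 0 left over.

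Libraries were grouped by the fraction and age in the labels. Counts were fitted by edgeR 4.0.16 (R 4.3.3) with TMM scaling, filterByExpr over 16 groups and 1 mean per group, and tested by its two-sided quasi-likelihood F-test with Benjamini-Hochberg adjustment over 14154 genes, called at an adjusted p under 0.01. The fit was also run on simulated counts, with changes set in Aged HSC only and the same spread for every gene. Real duplicates differed unevenly between groups, so that run does not show how reliable the calls are. Levels are TMM-scaled CPM, and per kilobase of the GENCODE M21 transcript with the longest coding sequence where genes are compared. The floor is 3 counts, which covers counting error only. Alternatives were DESeq2 1.42.0, its size factors, no filter, offsets for GC content and gene length, a replicate block, the libraries of one contrast only, a threshold of 0.05, and leaving out each library. In each age contrast the called members are named, with fuller statistics for the 4 largest and for any called in 4 or more fractions. In the other contrasts the 4 largest called are named, and of the pathway genes that are no members at most 2 per direction. The Hmgcs1 promoter, the leave-one-out losses and the values of members not called were named after they were seen. The members and lists were chosen with earlier results of these data known. Some genes of the lists are not reported here by name.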

Additional observations from a re-analysis of the deposited data

Results flagged for a closer look

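The age difference of a member in 1 fraction was set against its mean age difference in MPP1 to MPP4 by an interaction contrast in edgeR, and the called differences are given as differences of log2 fold changes. The 4 fractions share the MPP libraries, so the lists are not independent of each other.

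In CLP the age difference was higher than in MPP1 to MPP4 for Srebf2 0.89, Insig1 1.90, Hmgcs1 1.46, Pmvk 0.56, Mvd 2.04, Idi1 1.01, Fdps 1.06, Fdft1 1.27, Sqle 1.47, Lss 1.5, Cyp51 1.20, Tm7sf2 1.73, Nsdhl 0.66, Hsd17b7 1.19, Dhcr7 1.19, Scd2 0.82 and Stard4 0.79. In MEP it was higher for Srebf1 0.54, Srebf2 0.92, Insig1 1.20, Mvd 1.72, Fdps 0.89, Fdft1 0.56, Sqle 0.88, Lss 1.18, Cyp51 0.55, Tm7sf2 1.37, Dhcr7 0.78, Scd2 0.66 and Stard4 1.29, and lower for Elovl5 -0.47 and Abcg1 -2.12. In GMP it was higher for Srebf2 1.19, Insig1 0.66, Fdps 0.44, Sqle 0.48, Dhcr7 0.53 and Scd2 0.64, and lower for Ebp -0.57 and Elovl5 -0.37. In HSC it was lower for Acat2 -0.47.

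Over the 8 fractions together, the age difference varied by the F-test for 21 members. No group had the 4 or more libraries needed to look for a single library far from the rest.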

How the results depend on the processing

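Of 195 member calls over the 16 contrasts, DESeq2 kept direction and call for 193, DESeq2's size factors for 190, no filter on low counts for 185, offsets for GC content and gene length for 159, the replicate block for 194, and a fit of only the contrast's libraries for 133. With the offsets, 4 reversed: Srebf1 (0.11) and Fasn (0.75) in young GMP against MPP3, and Fasn (0.49) and Fads1 (0.21) in young MEP against MPP2, with the same values when the replicate block was added. The cause was not tested. With 2 libraries a group, depth and n limit scarce members such as Scd1 and Tm7sf2.

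The counts of members that moved by over 1.5 times were these. With the offsets for GC content and gene length, higher calls were 1 in HSC, 2 in MPP1, 2 in MPP3, 0 in GMP and 4 in MEP, and lower calls 4 in GMP and 1 in MEP. Against MPP1 to MPP4 lower calls were 3 in HSC, 5 in GMP, 5 in MEP and 1 in CLP. In young cells 4 members were higher in MPP1 to MPP4 than in HSC, 8 lower in GMP than in MPP3 and 15 higher in MEP than in MPP2. With the offsets and the replicate block together, higher calls from HSC through MPP4 were 1, 1, 2, 3 and 5, with 0 in GMP and 5 in MEP, and lower calls 5 in GMP and 1 in MEP. Against MPP1 to MPP4 they were 3, 6, 5 and 1 lower, and in young cells 4 higher, 9 lower and 14 higher, in the same order. DESeq2 gave 1 higher in HSC, 1 in MPP1, 13 lower in MPP3, 11 in MPP4, 4 in GMP, 0 in CLP (3 at an unadjusted p under 0.05), and 10 higher in GMP against MPP1 to MPP4. Its size factors gave 0 higher in MPP2 and 1 in young MPP1 to MPP4 against HSC, as did no filter, which gave 4 higher in MEP. With only the contrast's libraries there were 2 lower in HSC, 2 higher in MPP1, 4 higher in MPP2, 1 higher and 1 lower in GMP, 0 and 0 in MEP, 0 and 0 in CLP, 2 lower in HSC against MPP1 to MPP4, 5 higher in young MPP1 to MPP4 against HSC, and 4 higher in young GMP against MPP3. At an adjusted p under 0.05 1, 1, 3, 3 and 5 members were higher from HSC through MPP4, and 13 lower in MPP3, 10 in MPP4, 5 in GMP and 2 in CLP. At that threshold 3 were lower in HSC and 13 higher in GMP against MPP1 to MPP4, 4 higher in young MPP1 to MPP4 against HSC and 4 lower in young CLP against MPP4.

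Leaving out 1 library gave these ranges. Higher calls were 0 to 1 in HSC, 0 to 0 in MPP1, MPP2 and MPP3, 2 to 3 in MPP4, 1 to 4 in GMP, 2 to 6 in MEP and 6 to 15 in CLP. Lower calls from HSC through MPP4 were 9 to 11, 6 to 7, 5 to 7, 5 to 5 and 1 to 4, with 1 to 3 in GMP, 1 to 3 in MEP and 0 to 1 in CLP. Against MPP1 to MPP4 the higher and lower calls were 0 to 0 and 0 to 1 in HSC, 3 to 6 and 1 to 3 in GMP, 11 to 13 and 2 to 2 in MEP, and 13 to 17 and 0 to 1 in CLP. In young cells they were 1 to 3 and 6 to 12 for MPP1 to MPP4 against HSC, 5 to 8 and 13 to 15 for GMP, 6 to 8 and 9 to 11 for MEP, and 7 to 9 and 2 to 3 for CLP. A lone library left in a group was assumed to vary like the other groups.

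The replicate numbers did not pair the samples: deviations of same-numbered young and aged libraries correlated at -0.06 to 0.07 within a fraction. With the replicate block, Dhcr7 in MPP2 missed the threshold (-0.44, adjusted p = 0.0108 in edgeR), 9 members were lower in MPP3, and 22 varied over the 8 fractions.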
